A study of Nasonia vitripennis with 15 samples.

Results

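The 833 transcripts described here are those whose level in the testis of the parasitoid wasp Nasonia vitripennis fell over 24 h at 25 °C and reached a similar level after 24 h at 36 °C. They came from 832 genes, and the count tables held 26279 transcripts. Each of 5 groups had 3 pools, named A, B and C, which gave 15 RNA libraries in all, and every pool held 60 testes of nymphs of the strain AsymC by the labels. The groups were white nymphs at 0 h (25 °C), white nymphs kept for 10 h at 36 °C or at 25 °C, and white nymphs with red eyes, kept for 24 h at 36 °C or at 25 °C. No gene was altered in any group, and the temperature of the nymphs was the treatment. Nothing in the labels says that pools came from separate rearings, so that p-values measure the spread between these pools.

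The 833 were chosen by their measured levels. A level is given as CPM, the count of a transcript divided by the total of its library and multiplied by 1000000. Transcripts with an XM_ or NM_ identifier (24626) and a median of at least 20 CPM over the 3 pools at 0 h (4616) were kept, where the rule's minimum of 20 was read as CPM, as its levels are (a minimum of 20 raw counts would give 1050 transcripts, these 833 among them). Of the 4616, 1035 were lower at 24 h by at least 1 on the scale of log2(1 + median CPM). A median at 10 h at 25 °C that lay between those at 0 h and 24 h was met by 1023 of them. Finally, a median after 24 h at 36 °C within 0.75 of that at 25 °C on the same scale left the 833, which is 18.0% of the 4616. The comparisons of 24 h with 0 h at 25 °C and of 36 °C with 25 °C at 24 h were therefore part of the choice and carry no test below. The pools at 10 h at 36 °C were not used in the choice. The 3 members just inside the threshold (XM_003424572, NV14854 and XM_003425325) had changes of -1.0012, -1.0012 and -1.0021, and the 3 transcripts just outside it (NV17558, NV13678 and NV12644) had -0.9999, -0.9984 and -0.997.

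Male wasps are haploid and arise from unfertilized eggs, so their germ cells make sperm through a meiosis without reduction. By the study's methods, the germ cells of white nymphs are primary spermatocytes and those of white nymphs with red eyes are secondary spermatocytes. Primary spermatocytes of insects are large growing cells that transcribe and translate heavily and store messages for the shaping of spermatids. In bulk RNA from whole testes, fewer cells of a type and less RNA per cell cannot be told apart.

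Of the 833 members, 51 carried a descriptive name, 40 by a RefSeq symbol and 11 by the study's text or its ortholog table alone. The other 782 are known here only by an NV or RefSeq number. The rule was met by 46 curated (NM_) and 787 predicted (XM_) transcripts, and 642 had an NV number. Genes with a single transcript accounted for 718 members (86.2%), against 85.7% of all 4616 transcripts with at least 20 CPM at 0 h.

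Total counts ran between 1749769 and 7154421 per library. Chaperone transcripts (14 by symbol) summed to 16120 to 24560 CPM in the 3 pools at 10 h at 36 °C, against 10490 to 11740 CPM in the 3 at 10 h at 25 °C, and these groups did not overlap. One library stood far from its group. Over the 3783 transcripts with at least 20 CPM at 0 h that are not members, the median absolute log2 difference of pool B at 10 h at 36 °C was 0.502 from its own group's other pools and 0.164 from the pools at 24 h at 36 °C. Pools A and C of its group lay 0.420 and 0.497 from the same pools at 24 h. Pool C of 10 h at 36 °C (0.338 from its own group, 0.244 from 0 h), pool B of 0 h (0.294 from its own group, 0.259 from 10 h at 25 °C) and pool C of 24 h at 25 °C (0.228 from its own group, 0.219 from 10 h at 25 °C) were also nearer to another group, by less. The own-group value of pool C at 36 °C was taken against the median of pools A and B, so that pool B enters it. Pools A and C differed less from each other than from pool B (chi-square per degree of freedom of 4.83, against 114 and 73.0). Pool B of 10 h at 36 °C is kept under its label, and results on the pools at 10 h at 36 °C are given with and without it. Epidermal transcripts (64 with symbols of cuticle and pigment genes) summed to 860 CPM in that pool, against 238 and 222 CPM in pools A and C of the group. Pool B was also the highest at 10 h at 25 °C, at 586 CPM, against 294 and 239 CPM in pools A and C. At 24 h at 25 °C the sums were 9523 CPM (pool A), 711 CPM (pool B) and 758 CPM (pool C), against 314, 202 and 204 CPM at 0 h, so that all 3 pools at 24 h were higher. Muscle transcripts (26 by symbol) summed to 1235, 851 and 856 CPM at 24 h at 25 °C, against 564, 354 and 493 CPM at 0 h, again without overlap. In pools A, B and C of 10 h they summed to 468, 745 and 438 CPM at 36 °C and to 436, 836 and 403.5 CPM at 25 °C. Of the epidermal list 14 transcripts, and of the muscle list 12, were at 0 counts throughout. The part of such cells in any result was not tested. Markers of nerve and cyst cells stayed under 80 and 20 CPM in every library, with 31 of 58 and 22 of 28 transcripts at 0 counts throughout.

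Together, the 833 members made up 23.8%, 18.7% and 25.2% of all counts in pools A, B and C at 0 h. At 10 h their share was 19.5%, 9.56% and 21.4% at 36 °C, against 16.1%, 12.2% and 15.3% at 25 °C. At 24 h it was 11.02%, 9.64% and 9.36% at 36 °C, against 7.89%, 9.14% and 10.1% at 25 °C. No pool at 24 h reached the lowest pool at 0 h. Pools A and C at 10 h at 36 °C thus lay above all 3 pools at 10 h at 25 °C and pool B lay below all 3. The change at 24 h against 0 h at 25 °C had a median of -1.26 over the members on the log2(1 + CPM) scale, with a range of -4.92 to -1.001. It was -1.5 or lower in 205 members, -2 or lower in 43 and -3 or lower in 5. The 3 pools at 24 h all lay below the 3 at 0 h in 813 of the 833, where the same held for 56.6% of the 4616 transcripts at that level, and nothing is read from this count because the rule used the contrast. The named exception was cul-3 (NV11526), the scaffold of a ubiquitin ligase. Pools without overlap between times at 25 °C, given below for single members, are likewise description only, since the rule set the order of the medians.

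**Figure D1:**
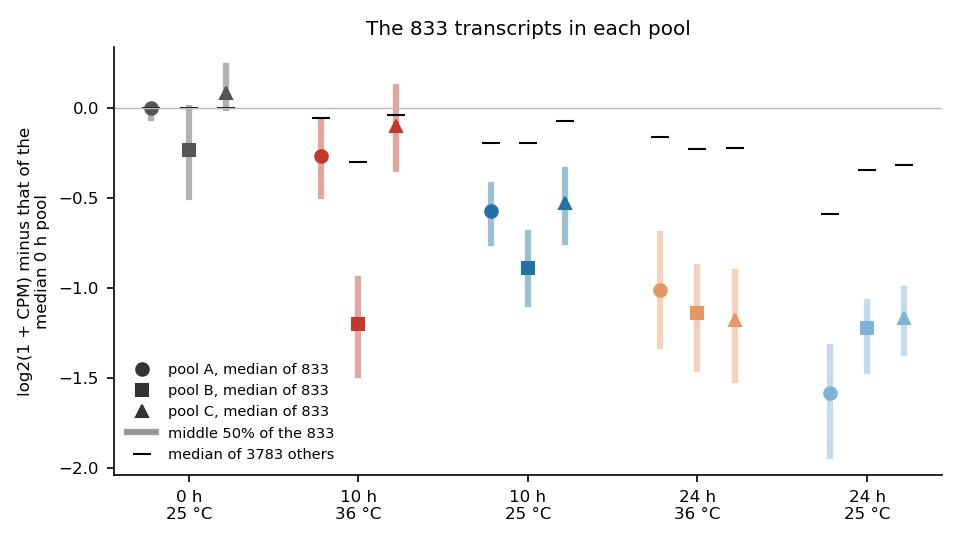
Each symbol is the median over the 833 members of their log2(1 + CPM) in 1 pool minus that of the median 0 h pool, bars span the middle 50% of members, and black dashes are the median of the 3783 other transcripts with at least 20 CPM at 0 h. At 10 h at 36 °C pools A and C lie at -0.27 and -0.10 and pool B at -1.20, against -0.57, -0.89 and -0.53 for pools A, B and C at 25 °C.

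The size of the fall depended on the scaling. With CPM taken on library totals, the median change at 24 h over all 4616 transcripts was itself -0.55. After scaling by TMM factors, which assume that most transcripts do not change, that median was -0.17 and the median of the members was -0.90. Under this scaling the members had changes of -4.48 to -0.39 at 24 h, and 313 were lower by at least 1. That all 833 were lower followed from the rule and is not a check. The TMM factors were 1.09 to 1.19 at 0 h and 0.754 to 0.919 at 24 h at 25 °C. Factors this close cannot undo a fall of at least 1. Applied to the TMM-scaled values, the rule found 322 transcripts, 296 of them among the 833.

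The rule used the level at 0 h as its minimum and as the start of the fall. Nothing is therefore read from the shares of members by that level, which were highest at 1000 CPM or more. Of the 136 transcripts with at least 1000 CPM at 0 h, 54 (39.7%) were members, against 326 of 2120 (15.4%) between 100 and 1000 CPM, 237 of 1121 (21.1%) between 50 and 100 CPM, and 216 of 1239 (17.4%) between 20 and 50 CPM. CPM is not adjusted for length, so that an order among transcripts is not an order among RNA molecules. The member with the highest CPM was NV15950, which has no name in the sources used here. It measured 48619, 25180 and 44658 CPM in pools A, B and C at 0 h, 28907, 18858 and 22823 at 10 h and 15829, 13682 and 16327 at 24 h, all at 25 °C. This single transcript thus took 4.86%, 2.52% and 4.47% of the counts at 0 h and 1.58%, 1.37% and 1.63% at 24 h, and the other 832 members took 6.30%, 7.78% and 8.50% of the counts at 24 h, against 19.0%, 16.2% and 20.8% at 0 h. After 24 h at 36 °C NV15950 was at 12041, 10350 and 9798 CPM, below all 3 pools at 25 °C.

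The next in level were NV17008, NV10823, XM_008212481 and NV14708, again without a name. NV17008 stood at 3416, 4169.6 and 3638 CPM at 0 h, 2636, 2059.7 and 2923 at 10 h and 568, 1193 and 1628 at 24 h. NV10823 stood at 2464, 4652 and 3405 CPM at 0 h, 1769, 1898 and 3218 at 10 h and 435, 1367 and 1474 at 24 h. In both, pool A was the lowest at 24 h, and each pool at 24 h lay below each pool at 0 h. XM_008212481 and NV14708 had the same order at 24 h, with 582, 1214 and 1413 CPM and 444, 1001 and 1151 CPM, against 2546, 3335 and 2746 CPM and 1446, 3031 and 2159 CPM at 0 h. The remaining members of the 10 highest (NV15382, NV14752, NV18336, RpL10 and NV17814) had medians of 751 to 1049 CPM at 24 h, against 1907 to 2153 CPM at 0 h.

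The 4 largest falls were of transcripts whose pools differed widely within a group. NV10385 measured 84.02, 22.3 and 53.7 CPM at 0 h, 12.4, 5.35 and 17.1 at 10 h and 0.807, 7.17 and 0.391 at 24 h. NV17562 measured 185, 31.5 and 21.1 CPM at 0 h, 4.81, 1.57 and 8.82 at 10 h and 0.269, 11.7 and 0 at 24 h, the last from 1, 26 and 0 counts. NV17730 measured 165, 51.9 and 14.3 CPM at 0 h, 5.73, 4.41 and 9.92 at 10 h and 2.15, 26.9 and 1.96 at 24 h. In these 3 transcripts, and in XM_003427408 (28.4, 10.3 and 20.6 CPM at 0 h and 0.538, 8.96 and 0 CPM at 24 h), pool A was the highest at 0 h and pool B the highest at 24 h. The pools at 24 h and 0 h overlapped in NV17730 but not in the other 3. Their order in size rests on values of few counts at 24 h and on the pseudocount of 1 CPM.

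The other large falls were steadier. NV12997 was at 219, 125 and 207 CPM at 0 h, 88.5, 35.6 and 57.9 at 10 h and 16.7, 24.6 and 21.9 at 24 h. NV11188 was at 499, 335 and 747 CPM at 0 h, 237, 146 and 269.6 at 10 h and 40.6, 75.7 and 89.98 at 24 h. Each pool at 24 h lay below each pool at 10 h in both, and each pool at 10 h below each pool at 0 h. XM_003426865, XM_003423962 and NV11468 had changes of -2.90, -2.89 and -2.57 without overlap between 24 h and 0 h. The only named transcript among the 10 largest falls was Gnbp1-2 (NV10893), of a family that recognizes microbial cell walls, at 5.38, 4.48 and 8.22 CPM at 24 h, against 37.9, 25.3 and 43.4 CPM at 0 h.

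The named members are given by what their products are known to do, in groups that were formed after the names had been read and that carry no test. Protein synthesis and ribosome assembly had the most, with 9 members and a median change of -1.16. Rpl6 (NV12167), a protein of the large ribosomal subunit, measured 1523, 922 and 1668 CPM at 0 h, 928, 669.8 and 862 at 10 h and 559, 577 and 584 at 24 h. Rpl7a (NV17497 in the files, matched to the study by its RefSeq identifier), of the same subunit, measured 1192, 844 and 1221 CPM at 0 h, 833, 621 and 692 at 10 h and 534, 520.3 and 547 at 24 h. The study's quantitative PCR took these 2 genes as its internal standards, and in the libraries both were lower at 24 h than at 0 h in every pool, with changes of -1.40 and -1.16 on the log2(1 + CPM) scale. With TMM scaling these changes were -1.13 and -0.79.

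RpL10 (NV11719) and Rpl41, likewise of the large subunit, were at 719, 751 and 834 CPM and 481, 428 and 502 CPM at 24 h, against 1955, 1381 and 2037 CPM and 1221, 682 and 996 CPM at 0 h. Pool B was the lowest of the 0 h pools in all 4 of these transcripts. The mitochondrial ribosomal protein mRpL12 had a change of -1.09, and eIF-2beta, a subunit of the factor that brings the initiator tRNA, one of -1.06. Larger changes were seen for 2 factors of ribosome assembly. Nop60b-like, named for the enzyme that converts uridines of ribosomal RNA to pseudouridine, was at 180.0, 158 and 239 CPM at 0 h, 101, 79.3 and 117 at 10 h and 29.1, 48.4 and 57.5 at 24 h. Tsr2, whose yeast counterpart acts in the maturation of the small subunit, was at 40.6, 33.9 and 40.01 CPM at 0 h, 23.4, 20.1 and 25.4 at 10 h and 9.95, 9.86 and 13.7 at 24 h. No pool overlapped between any 2 of these times in either.

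The germ line group had 2 members. The transcript of oskar, the organizer of germ plasm in insect eggs, measured 742, 623 and 742 CPM at 0 h, 439, 309 and 391 at 10 h and 109.8, 156 and 193 at 24 h. The 3 times did not overlap and the change at 24 h was -2.24. Blanks (NV18413), whose fly counterpart binds double-stranded RNA in the male germ line, measured 842, 832 and 1021 CPM at 0 h, 581, 536 and 587 at 10 h and 326, 386 and 444 at 24 h, again without overlap. Alpha 2 importin (NV14612), an adaptor for import into the nucleus, was at 146, 234 and 293 CPM at 24 h, against 547, 657 and 569 CPM at 0 h.

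**Figure D2:**
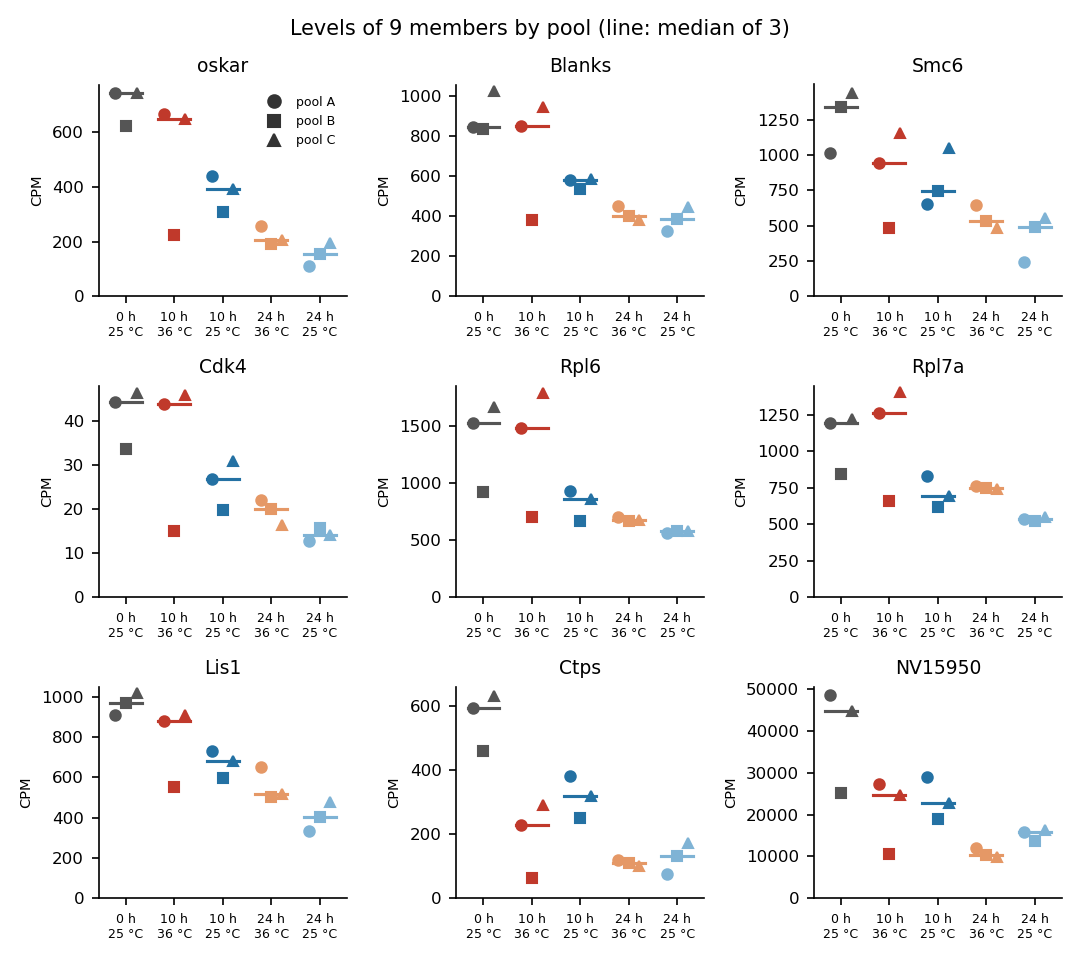
Each panel gives CPM of 1 member in the 15 pools (symbols for pools A, B and C, a line for the median of 3), with 36 °C left of 25 °C at each time. For oskar the pools at 24 h at 25 °C lie between 110 and 193 CPM and those at 0 h between 623 and 742 CPM.

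Genome maintenance and the cell cycle had 7 members. Smc6 (NV10432), of the SMC5/6 complex that acts on recombining and damaged DNA, was at 1012, 1338 and 1438 CPM at 0 h, 652, 745 and 1047 at 10 h and 245, 489.8 and 550.4 at 24 h. Pool A was the lowest at 24 h. Cdk4 (NV11470), a kinase of the G1 phase, was at 12.6, 15.7 and 14.1 CPM at 24 h, against 44.3, 33.5 and 46.3 CPM at 0 h. The member mod (NV18665), paired by the study with modulo, a nucleolar protein of the fly, was at 67.3, 98.6 and 102 CPM at 24 h, against 341, 287 and 444 CPM at 0 h. The bypass polymerase Pol-iota had a change of -1.35. Gnf1 had -1.30 in its predicted transcript, the member, and -0.45 in its curated one (medians of 21.1 CPM at 24 h, against 29.1 CPM at 0 h).

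Transcription and RNA processing had 8 members with changes between -1.46 and -1.03. Sf3b3 (NV14176), of the spliceosome's U2 particle, was at 444, 393 and 468 CPM at 0 h, 256, 249 and 258 at 10 h and 108, 162 and 161 at 24 h. Trl (NV15260), paired with the fly's GAGA factor of chromatin, was at 189.5, 168 and 195 CPM at 0 h, 119.9, 120.2 and 118 at 10 h and 75.3, 101 and 84.9 at 24 h. The pools of these 3 times were separate in both. Snrpc of the U1 particle and the splicing factor Rbm39 had changes of -1.11 and -1.03, and Rpb7, a subunit of RNA polymerase II, one of -1.17. Ints12 of the Integrator complex, which cuts nascent RNA, was still at 52.7, 41.5 and 52.4 CPM at 10 h and at 19.4, 27.8 and 24.6 CPM at 24 h. Cwf19l1 and the transcription factor Srf had -1.07 and -1.11.

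Motors, membrane traffic, adhesion and nuclear import had 8 members. Lis1 (NV12141), a regulator of the motor dynein, was at 910.1, 972 and 1017 CPM at 0 h, 729.8, 599 and 684 at 10 h and 335, 406 and 476 at 24 h. Neb (NV11667), whose fly counterpart is a kinesin, was at 67.4, 59.3 and 73.7 CPM at 0 h, 45.8, 33.4 and 50.2 at 10 h and 8.61, 17.9 and 25.8 at 24 h, in 1 of the 3 transcripts of its gene. The 3 times did not overlap in these transcripts. The dynactin subunits Dctn6 and Dctn5 had changes of -1.61 and -1.31, and the SNARE proteins Vti1a-like and Sec22b, which fuse vesicles with their targets, -1.35 and -1.16. The transcript paired in the ortholog table with arm, the fly's beta-catenin (NV16988), had -1.10. The study's text gives armadillo as another gene, NV13691, among its upregulated genes, and that gene had no member here.

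Metabolism and respiration had 7 members. Ctps, the enzyme that makes CTP from UTP, measured 596, 460.2 and 633 CPM at 0 h, 383, 252 and 319 at 10 h and 75.1, 131 and 173 at 24 h, the largest change of the 7 at -2.17. Ahcy, which clears the product of methylation reactions, measured 67.3, 77.97 and 91.5 CPM at 24 h, against 179, 143 and 207 CPM at 0 h. Ndufa10, Ndufab1 and Ndufb10, of complex I of the respiratory chain, had changes of -1.12, -1.04 and -1.03. Mak10, a subunit of an N-terminal acetyltransferase, and Nrk1 had -1.31 and -1.17. Defence, detoxification and proteolysis had 6 members, of which the carboxylesterase CCE-A5 was at 6.19, 8.96 and 11.3 CPM at 24 h, against 47.3, 29.6 and 47.4 CPM at 0 h. The glutathione S-transferases GstS3 and GstO1 had changes of -1.69 and -1.03, the serine protease homolog SPH21 -1.39 and the matrix metalloproteinase Mmp1 -1.17. The transcripts paired with the fly genes CG17917 and CG40178, and Ostf1, had -1.51, -1.06 and -1.21.

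Lists of symbols were counted against the 18.0% of all 4616 transcripts that are members. Of the ribosomal protein transcripts with at least 20 CPM at 0 h, 4 of 5 were members, and of those of germ line and small RNA genes 2 of 2. The cell cycle list had 1 of 7, Cdk4. Oxidative phosphorylation, with far more named genes, had 3 of 55, and chaperones 0 of 10. Motors and tubulins had 0 of 3 and receptors 0 of 3, and no transcript of the chromatin list reached 20 CPM. These lists were matched on RefSeq symbols and the study's ortholog table only. Lis1 and Neb, which are motor genes, and Trl, a chromatin gene, are members but are named here from the study's text. They are therefore missing from these counts. Of the genes the study groups under oogenesis, which it had chosen for a lower level at the later stage in these samples, 3 of 7 transcripts (Lis1, Neb and Trl) were members. None of the 4 under Notch receptor processing, the 4 under spermatid differentiation, the 5 under sperm motility or the 13 of meiosis genes were members, and 8 of 60 transcripts of its ortholog table were. Most genes carry no symbol, so that these counts cover a small part of each function.

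For 114 of the 832 genes the tables held more than 1 transcript, and the share of reads given to each is uncertain. These genes had 175 other coding transcripts, of which 20 had at least 20 CPM at 0 h. Of those, 17 were lower at 24 h and 4 by at least 1. The member of cul-3 is its minor transcript, at 5.11, 10.8 and 7.43 CPM at 24 h and 8.31, 20.5 and 20.003 CPM at 0 h, and the main one had a median of 60.6 CPM at 24 h, against 55.4 CPM at 0 h. NV14234 had a member at 34.1 CPM at 24 h, against 77.7 CPM at 0 h, beside a transcript at 79.0 CPM at 24 h, against 30.9 CPM at 0 h. In the order of genes along the RefSeq assembly, 122 of the 780 member genes that could be placed (15.64%) lay next to another member gene, as did 456 of 3446 other genes at that level (13.2%), and no run was longer than 3.

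By 10 h at 25 °C the members had covered a median of 50.7% of their 24 h fall on the log2 scale, with the middle 50% of members between 40.0% and 60.4%. This share was under 25% in 40 members and over 75% in 50, and it was 42.9%, 67.1% and 40.3% when pools A, B and C at 10 h were taken alone. Among named members it was lowest for Ints12 (9.77%) and Snrpc (18.1%), and highest for the CG40178 ortholog (83.7%) and GstO1 (75.5%). For the 54 members with at least 1000 CPM at 0 h the median was 59.7%, and for the 216 under 50 CPM it was 50.1%. The rule asked only that the 10 h median lie between the others, so these shares had to fall between 0 and 100%.

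At 10 h at 36 °C, which the rule did not use, the median share was 22.4%, against 50.7% at 25 °C, and it was smaller at 36 °C in 684 of the 833 members. In 145 members the median at 10 h at 36 °C was above that at 0 h. The 3 pools differed widely, with medians of 19.5% in pool A, 90.9% in pool B and 7.47% in pool C. Without pool B the median share was 13.6%, it was smaller than at 25 °C in 734 members and 222 stood above 0 h. Without pool A or pool C it was 40.6% or 48.9%. Members with at least 1000 CPM at 0 h had a median share of 5.85% at 36 °C, or 0.44% without pool B, against 59.7% at 25 °C. The rule kept each member's 10 h median at 25 °C below that at 0 h, and 36 °C had no such limit. The counts of members were not made for other transcripts. On the scale of the rule, 36 °C lay above 25 °C at 10 h by a median of 0.36 over the members. Over all 4616 transcripts this median was 0.09, also above 25 °C. Nothing particular to the members is therefore read from these counts.

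**Figure D3:**
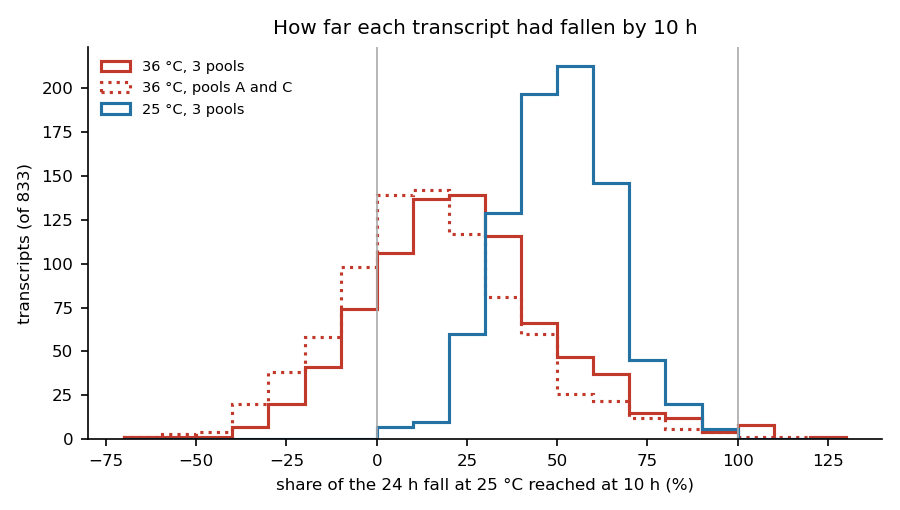
Histograms over the 833 members of the share of the 24 h fall at 25 °C that was reached by 10 h, at 36 °C (all pools, solid red; pools A and C, dotted red) and at 25 °C (blue), in steps of 10%. The medians are 22.4%, 13.6% and 50.7%, and shares under 0% are members above their 0 h median.

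The contrast of 36 °C with 25 °C at 10 h asked whether the warmer nymphs had the same levels part way through the fall. It was tested with edgeR's quasi-likelihood test over all transcripts, on 12 libraries that also gave the spread, with Benjamini-Hochberg adjustment at 0.05. The pools at 10 h at 25 °C entered the choice of members only through lying between 0 h and 24 h, which removed 12 of 1035 transcripts. The limit between temperatures at 24 h then left 833 of 1023, so that members were chosen for similar levels at 36 °C and 25 °C at that time. The transcripts tested as a whole had neither this limit nor the minimum of 20 CPM at 0 h. The shares called below thus compare sets that were chosen differently. All 833 members were tested. At 36 °C 6 members were higher (0.72%, against 2.24% of the 8351 transcripts tested) and 4 lower (0.48%, against 1.38%). The median log2 fold change of the members was 0.15, with 550 above 0, against 0.00 over all transcripts.

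This result turned on the library that stood apart. Without pool B at 36 °C, 239 members were higher (28.7%, against 12.2% of 8485 transcripts) and 10 lower (1.2%, against 14.8%), and the median log2 fold change was 0.38, with 699 above 0, against -0.01 over all. With library totals in place of TMM and without pool B, 270 members were higher and 4 lower, and the split over all transcripts was 1266 higher and 1005 lower, against 1037 and 1253 with TMM. Without pool A or pool C at 36 °C instead, 0 members were higher and 1 or 2 lower, with medians of 0.01 and -0.01, and at an unadjusted p under 0.05 there were 24 or 19 higher and 45 or 52 lower. Leaving out 25 °C pool A, B or C left 1, 0 or 0 higher and 1, 2 or 1 lower, with 115, 30 or 47 higher and 22, 45 or 25 lower at an unadjusted p under 0.05, and medians of 0.21, 0.04 and 0.16. Taken singly at 36 °C, pool A was above all 3 pools at 25 °C in 546 members and pool C in 652, whereas pool B was below all 3 in 639. Neither these counts nor those at an unadjusted p were made for other transcripts. Nothing particular to the members is therefore read from them. The medians of the 3783 others relative to 0 h were -0.06, -0.30 and -0.04 in pools A, B and C at 36 °C. At 25 °C they were -0.20, -0.19 and -0.07.

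**Figure D4:**
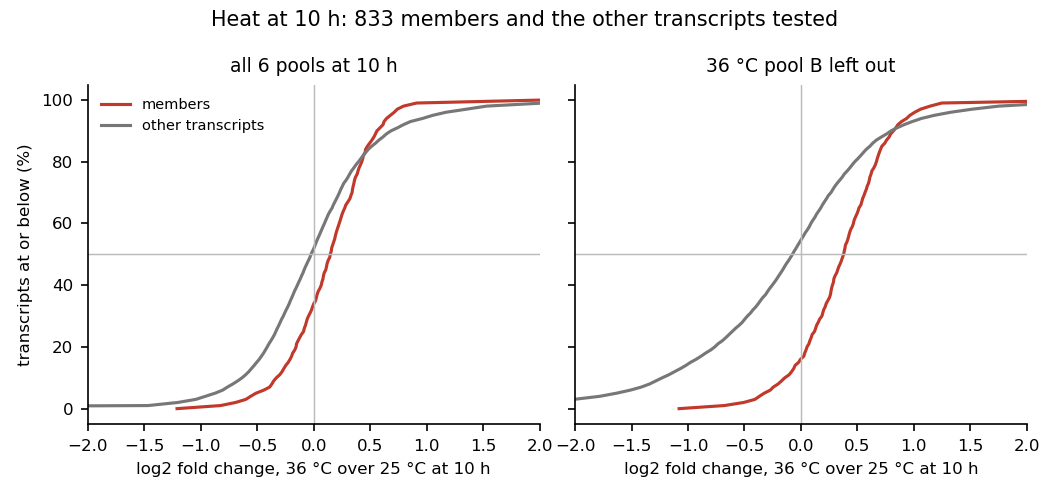
Cumulative distributions of the log2 fold change of 36 °C over 25 °C at 10 h for the 833 members (red) and all other transcripts tested (grey), with all pools (left) and without pool B of 36 °C (right). The members' median is 0.15 with all pools and 0.38 without that pool.

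The 10 members that passed with all pools also passed without pool B, in the same direction, but the calls were not firm. With the 6 libraries at 10 h alone none of the 10 passed (edgeR adjusted p of 0.104 to 0.193), with library totals 2 did, and without any 1 of the other 5 pools at 10 h 1 or 2 did. NV12040 was at 47.8, 11.04 and 55.3 CPM at 36 °C, against 11.002, 7.55 and 13.8 CPM at 25 °C, a log2 fold change of 1.73 ± 0.45 (SE; edgeR adjusted p = 0.047), or 2.16 without pool B. Its pools A and C at 36 °C lay above the 30.01, 20.5 and 41.7 CPM of 0 h. NV11308 was at 248, 112 and 262 CPM at 36 °C, against 117, 88.1 and 107 CPM at 25 °C, with 0.92 ± 0.22 (SE; edgeR adjusted p = 0.037), or 1.18 without pool B. NV17509, NV19195, NV16747 and NV11544 had log2 fold changes of 0.86, 0.83, 0.72 and 0.66 (edgeR adjusted p = 0.04, 0.021, 0.036 and 0.031), or 1.11, 1.004, 0.89 and 0.72 without pool B. In the plot of these 10 members, pool B is the lowest of the 36 °C pools for each of the 6.

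Lower at 36 °C were 4 members, all without a name. NV19011 was at 52.5, 43.05 and 57.5 CPM at 36 °C, against 82.1, 86.9 and 89.3 CPM at 25 °C, with -0.80 ± 0.16 (SE; edgeR adjusted p = 0.013), or -0.76 without pool B. NV10463 was at 110.0, 56.7 and 97.9 CPM at 36 °C, against 174, 140.4 and 208 CPM at 25 °C, with -1.03 ± 0.23 (SE; edgeR adjusted p = 0.024), or -0.83 without pool B. NV14664 and NV13484 had -0.86 and -1.21 (edgeR adjusted p = 0.029 and 0.042), or -0.64 and -1.08 without pool B. With the pool letter as a block NV13484 missed the threshold (edgeR adjusted p = 0.0513), and the other 9 of the 10 passed. The 3 pools at 36 °C lay below the 3 at 25 °C in all 4 of these members.

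**Figure D5:**
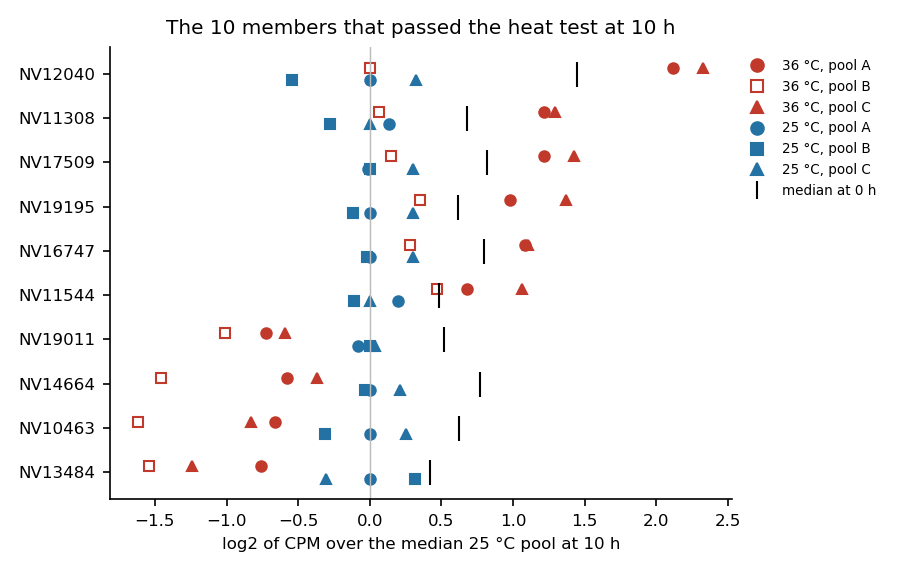
For each of the 10 members that passed the test at 10 h, CPM in the 6 pools at 10 h is shown as log2 over the median 25 °C pool (red, 36 °C, with pool B open; blue, 25 °C), and a black bar marks the median at 0 h. NV12040 is the highest at 36 °C, at 47.8 and 55.3 CPM in pools A and C.

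None of the 51 named members passed in edgeR with all pools (7 had an unadjusted p under 0.05, and DESeq2 called 1, Ints12, lower at 36 °C). Without pool B 16 passed, all higher at 36 °C (31.4%, near the 28.7% higher, with 1.2% lower, over all 833 members, against 12.2% higher and 14.8% lower over all transcripts in that fit). Protein synthesis gave 4 of them, the cytoplasmic ribosomal proteins. Rpl6 was at 1478, 701 and 1792 CPM at 36 °C, against 928, 669.8 and 862 CPM at 25 °C, with a log2 fold change of 0.62 ± 0.26 with all pools (SE; edgeR adjusted p = 0.2) and 0.88 ± 0.16 without pool B (SE; edgeR adjusted p = 0.0014). Rpl7a was at 1261, 659.7 and 1405 CPM at 36 °C, against 833, 621 and 692 CPM at 25 °C, so that pools A and C were above the highest pool of 0 h (1221 CPM), with 0.78 without pool B and 0.57 with it (edgeR adjusted p = 0.0028 and 0.2). RpL10 and Rpl41 had 0.59 and 0.71 without pool B (edgeR adjusted p = 0.026 and 0.0048), against 0.37 and 0.50 with it (edgeR adjusted p = 0.47 and 0.26). All 4 were above 0 in every setting tried.

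Both germ line transcripts were among the 16. The level of oskar was 665, 223 and 649 CPM at 36 °C, against 439, 309 and 391 CPM at 25 °C, with 0.68 ± 0.18 without pool B (SE; edgeR adjusted p = 0.012) and 0.36 with it (0.56). Blanks was at 849, 381 and 944 CPM at 36 °C, against 581, 536 and 587 CPM at 25 °C, with 0.55 without pool B and 0.28 with it (edgeR adjusted p = 0.0088 and 0.56). For both, pools A and C at 36 °C were close to the 0 h pools and pool B to the 24 h pools. Cdk4 was at 43.7, 14.96 and 45.9 CPM at 36 °C, against 26.8, 19.8 and 30.9 CPM at 25 °C, with 0.69 without pool B and 0.35 with it (edgeR adjusted p = 0.024 and 0.58). Among the 16 were also Trl and Rbm39, Ahcy, Ndufab1 and Nrk1, and SPH21, Mmp1 and GstO1, whose log2 fold changes without pool B lay between 0.40 (Ahcy) and 0.95 (GstO1). With all pools these 8 lay between 0.19 (Ahcy) and 0.61 (GstO1), with edgeR adjusted p of 0.21 (Trl) to 0.62 (Ahcy).

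No member of the motor, traffic and import group passed in either fit, and 1 had an unadjusted p under 0.05 in each. Lis1 was at 880.0, 553 and 908 CPM at 36 °C, against 729.8, 599 and 684 CPM at 25 °C, with 0.30 without pool B and 0.16 with it (edgeR adjusted p = 0.17 and 0.69). With all pools, the lowest values relative to 25 °C among named members were those of Ctps, at 230.5, 61.9 and 292 CPM at 36 °C, against 383, 252 and 319 CPM at 25 °C, and of Ints12, at 34.1, 20.4 and 33.7 CPM at 36 °C, against 52.7, 41.5 and 52.4 CPM at 25 °C. Their log2 fold changes were -0.81 and -0.79 with all pools (edgeR adjusted p = 0.32 and 0.076) and -0.41 and -0.63 without pool B (0.21 and 0.051), neither past the threshold in edgeR. All 3 pools at 36 °C lay below the 3 at 25 °C in Ints12.

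By 24 h the temperatures were close, as the rule required. The median at 36 °C was above that at 25 °C in 590 members (70.8%, against 58.7% of the 4616) and below it in 243, with a median difference of 0.20 and limits of -0.73 and 0.75 on the log2(1 + CPM) scale. Nothing is read from this count, since the members were chosen for low levels at 24 h at 25 °C. Pool A at 25 °C, the pool with high epidermal transcripts, was the lowest of the 6 in the members' median, at -1.58 relative to 0 h, against -1.22 and -1.16 in the other pools at 25 °C and -1.01, -1.14 and -1.18 in pools A, B and C at 36 °C. Rpl7a was at 763, 749 and 741 CPM at 36 °C, against 534, 520.3 and 547 CPM at 25 °C, without overlap between temperatures. In GstS3 the order was the other way, with 156, 165 and 156 CPM at 36 °C, against 225, 240.2 and 255 CPM at 25 °C. For oskar the pools overlapped, at 258, 190.1 and 207 CPM at 36 °C and 109.8, 156 and 193 CPM at 25 °C.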

How the data were processed

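RNA from pools of 60 testes (labels; the methods give 100 to 120) was sequenced with a TruSeq kit, stranded by the labels. Per the methods and the submitters' processing notes, the authors mapped reads to the Nvit_2.1 build with TopHat2 2.1.0. Reads were then assigned to RefSeq transcripts, and the tool is htseq-count in the methods but featureCounts 1.6.3 in the notes. The authors deposited 6 tables with 26279 transcripts each, whose values used here are raw counts per library, not normalized. All 39 count columns present in more than 1 table were identical. Another 54 columns of normalized values per library, and the columns of the authors' own DESeq2 comparisons (fold changes on the linear and log2 scale, p-values), were not used. No row lacked a transcript identifier. Total counts per library ran between 1749769 and 7154421, and within each group no 2 pools agreed within counting noise (chi-square per degree of freedom of at least 2.38), so each pool is 1 replicate.

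Counts were scaled to CPM on library totals for the membership rule and for every CPM value. Gene symbols were read from RefSeq's list for assembly Nvit_psr_1.1, which is not the authors' build. Only names and the order of neighbouring genes were taken from it, and no coordinates are printed. It matched 782 of 833 members. Transcripts of the 10 h and 24 h groups (12 libraries) were fitted together with edgeR 4.0.16 in R 4.3.3 (filterByExpr, TMM, quasi-likelihood), which was first tested on simulated data. Python 3.11.15 with pandas 2.3.3, numpy 2.4.6 and matplotlib 3.10.9 made the tables and plots. Alternatives were DESeq2 1.42.0, RLE factors, library totals, no low-count filter, the 6 libraries at 10 h alone, the pool letter as a block, and each pool left out. Another scaling or the block without pool B at 36 °C, and leaving out pools or a minimum of 20 raw counts in the membership rule, in the share reached by 10 h and in the count without overlap were added after the data were seen. Between the 10 h groups, pools of the same letter deviated together (r = 0.34, 0.53 and 0.29 for A, B and C over 4616 transcripts). This comes from the data and not the labels. Between the 24 h groups they did not (r = -0.49, -0.007 and -0.35), and 17 of all 30 pairs of the same letter were above 0.1. The blocked fit was thus read as a paired one for the 10 h groups, though its block also spans the 24 h groups. Named are members with a descriptive symbol or a name in the study, the 10 largest falls, the 10 highest levels at 0 h, members that passed at 10 h, and those next to the threshold. Some with only an identifier are given without values, and a few named members are not reported here. The members, gene lists and tests were chosen with earlier results of these data known.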

Additional observations from a re-analysis of the deposited data

How the results depend on the processing

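With TMM scaling the rule found 322 transcripts (296 of the 833), and with a fall of at least 1.5 it found 205. Without 1 pool it found between 650 and 973, with 938 without pool B of 0 h, 720 without pool A and 973 without pool C of 24 h at 25 °C. A minimum of 20 raw counts gave 1050. Means, a minimum of 50 CPM and no limit between temperatures at 24 h gave 845, 617 and 1023. For 36 °C against 25 °C at 10 h, library totals gave 2 members higher and 0 lower, DESeq2 8 higher and 10 lower (456 transcripts called in all, against 302 with edgeR), and the 6 libraries at 10 h alone 0 and 0 (47 in all, with 33 members higher and 22 lower at an unadjusted p under 0.05). With library totals and 0 lower calls, 18 members were lower at an unadjusted p under 0.05. With 1 pool left out, 0 to 239 members were higher, 1 to 10 lower and 109 to 2290 transcripts called in all. The highest values of these 3 ranges came without pool B at 36 °C, and the cause was not tested. Without that pool, RLE factors gave 226 members higher and 14 lower (2283 called in all), library totals 270 and 4 (2271), and the block 188 and 9 (1911), all added after the data were seen. The members' median log2 fold change ran between -0.01 and 0.38 over the pools left out, between 0.34 and 0.49 with another scaling or the block and without pool B at 36 °C, and between 0.12 and 0.21 over the other settings. With the pool letter as a block, which pairs the pools, 6 members were higher, 5 lower and 317 transcripts called in all, with a median of 0.13, and no count moved by over 1.5 times, though NV13484 lost its call. Each of the 10 members that passed kept its direction in all 15 other settings, and each missed the threshold in 3 to 8 of them. The share reached by 10 h ran between 42.4% and 55.0% at 25 °C and between 13.6% and 48.9% at 36 °C with 1 pool left out. Members without overlap between 24 h and 0 h numbered 743 with TMM scaling and 814 to 827 with 1 pool left out. Nothing is read from these counts, since the rule used the contrast and fewer pools overlap less easily. Depth limits transcripts of few counts at 24 h, such as NV17562.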
